A study of Mus musculus with 9 samples.

Results

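The genes described here are 8 dual-specificity phosphatases of MAP kinases, Dusp1, Dusp2, Dusp4, Dusp5, Dusp6, Dusp7, Dusp10 and Dusp16, chosen by name from the 56262 genes of the count tables. Each of the 8 symbols matched 1 gene, and all 8 passed the filter on low counts, which kept 16595 genes. RNA was sequenced from mouse bone marrow cells labelled long-term hematopoietic stem cells (LT-HSCs), which keep up blood production through life. There were 3 libraries in each of 3 groups, and all mice were C57BL/6 WT. The 5-FU+FMT mice were given 5-fluorouracil (5-FU), which is toxic to cells in cycle, at a dose of 250 mg/kg and then FMT, an agent that the labels do not spell out, at 5 mg/kg into a vein on days 1, 4 and 7. The 5-FU+Saline mice received the same dose of 5-FU and then saline, called PBS in the treatment label, on a schedule that is not stated. The treated mice were killed on day 8. Control mice were untreated, so they received neither 5-FU nor a vehicle. The labels give no age or sex and do not say whether libraries of a group came from separate mice, so p-values measure the spread between these libraries, which may be technical.

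MAP kinases (ERK, JNK and p38) are switched on by phosphate groups on a threonine and a tyrosine, and these phosphatases remove both. Most of the genes are themselves induced when a MAP kinase pathway is active, so they act as feedback brakes, and the best known, Dusp1, is an immediate early gene that cells transcribe within minutes of a stimulus. The family divides by place and substrate. Dusp1, Dusp2, Dusp4 and Dusp5 encode nuclear enzymes, of which DUSP5 acts on ERK. DUSP6 and DUSP7 are cytoplasmic and act on ERK, and DUSP10 and DUSP16 act on JNK and p38. RNA of a phosphatase gene is not a measure of MAP kinase activity, which was not assayed here.

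Promoter sequences from RefSeq (build GRCm38.p6, which has the coordinates of mm10) matched 7 of the 8 genes, all but Dusp4. The 250 bases before the annotated start are shown for Dusp1, Dusp2 and Dusp5, whose RNA was lower in both treated groups than in Control, and for Dusp7, whose RNA was higher. They are the windows chr17:26508473-26508722 on the minus strand, chr2:127335909-127336158, chr19:53528895-53529144 and chr9:106368382-106368631 on the plus strand. Each is written 5′ to 3′ and ends at the base before the RefSeq start. For Dusp1 and Dusp5 the counted gene, whose span is given below, begins further upstream. The Dusp1 window thus lies inside the counted span, and the Dusp5 window overlaps it. Capitals mark the core of the cAMP response element (CRE core, TGACG on either strand) and the CArG box, the site known to bind serum response factor.
Dusp1: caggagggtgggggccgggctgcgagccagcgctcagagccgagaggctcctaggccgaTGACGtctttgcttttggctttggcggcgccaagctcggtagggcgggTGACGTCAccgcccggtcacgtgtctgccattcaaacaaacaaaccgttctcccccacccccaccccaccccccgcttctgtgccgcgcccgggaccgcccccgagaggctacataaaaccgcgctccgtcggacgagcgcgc
Dusp2: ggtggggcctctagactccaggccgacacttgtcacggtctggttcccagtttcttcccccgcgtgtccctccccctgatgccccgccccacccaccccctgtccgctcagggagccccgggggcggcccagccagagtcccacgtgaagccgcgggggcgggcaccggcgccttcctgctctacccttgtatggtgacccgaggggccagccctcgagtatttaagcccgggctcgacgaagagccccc
Dusp5: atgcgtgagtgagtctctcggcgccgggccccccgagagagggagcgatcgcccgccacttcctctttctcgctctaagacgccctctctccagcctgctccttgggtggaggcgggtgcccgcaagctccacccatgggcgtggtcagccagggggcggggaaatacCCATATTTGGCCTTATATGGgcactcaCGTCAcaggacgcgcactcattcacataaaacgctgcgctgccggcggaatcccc
Dusp7: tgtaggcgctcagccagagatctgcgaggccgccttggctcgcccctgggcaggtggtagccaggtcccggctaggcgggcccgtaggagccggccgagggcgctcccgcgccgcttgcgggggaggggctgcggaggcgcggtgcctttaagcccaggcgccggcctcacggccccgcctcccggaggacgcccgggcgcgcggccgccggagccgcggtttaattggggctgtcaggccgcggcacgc

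Dusp1 held a CRE core from 191 to 187 bases before the start and a full CRE, TGACGTCA, from 143 to 136 bases before it, which counts as a CRE core on both strands. Dusp5 held 2 adjoining CArG boxes, from 82 to 73 and from 72 to 63 bases before the start, and a CRE core from 55 to 51 bases before it. Dusp2 and Dusp7 held neither motif. Nor did Dusp6 and Dusp10, whose RNA was also called lower in both treated groups and whose windows are not shown. Of the 7 genes, 1 had a full CRE, 3 a CRE core (Dusp16 being the other one) and 1 a CArG box, against 1.55%, 17.8% and 1.47% of all 32851 RefSeq windows of the same 250 bases. The GC box (GGGCGG) was in 5 of the 7 and in 32.7% of all windows, and the E-box (CACGTG) was in 2 and in 6.02%. AP-1 sites (TGANTCA), ETS sites (CCGGAA) and TATA boxes (TATAAA) were in none of the 7, against 6.75%, 12.03% and 12.4% of all windows. Both strands were searched. These are matches of letters in a short window and say nothing about whether a factor was bound.

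The libraries held 13723506 to 15435644 counts in 5-FU+FMT, 15128336 to 19270976 in 5-FU+Saline and 11098031 to 19095358 in Control. Groups differed in sex-linked RNA. Xist, which coats and silences the inactive X chromosome, had 682 ± 19.8 CPM (counts scaled to library size) in 5-FU+FMT, 1201 ± 20.2 in 5-FU+Saline and 0.870 ± 0.421 in Control (SD, n = 3 each), and the Y-linked Ddx3y had 100.04 ± 2.28, 38.9 ± 2.58 and 168 ± 4.23 CPM. Every treated library held both RNAs. In 5-FU+FMT, Xist ran from 659 to 695 CPM and Ddx3y from 98.0 to 102 CPM. In 5-FU+Saline they ran from 1183 to 1223 and from 37.1 to 41.9 CPM. Whether these libraries hold RNA pooled from mice of both sexes was not tested, and the labels do not say. Treatment and the difference in sex-linked RNA cannot be told apart in any comparison below. All 8 markers listed for LT-HSCs were detected, with a summed level of 1089 to 1111 CPM in 5-FU+FMT, 849.6 to 878 in 5-FU+Saline and 1403 to 1449 in Control. Of the gate genes, Slamf1, which encodes CD150, had 24.4 CPM in 5-FU+FMT, 34.5 in 5-FU+Saline and 8.35 in Control. Cd48, whose protein the gate excludes, had 46.7, 53.7 and 30.7 CPM in the same order. Kit went the other way, with 537, 410 and 754 CPM, and Ly6a differed less, with 108, 118 and 97.2 CPM. Lists of 8 markers of other cell types moved as well. B lineage markers summed to 399.9 to 437 CPM in 5-FU+FMT, 852 to 869.7 in 5-FU+Saline and 52.7 to 53.3 in Control, where 4 of the 8 were under 1 CPM. Neutrophil markers summed to 801 to 914 CPM, 150.1 to 165 and 2104 to 2132 in the same order, carried by Mpo, Elane and Prtn3, while Ltf went the other way, with 4.94, 8.85 and 0.2 CPM. Erythroid markers summed to 335 to 356, 184 to 187 and 621 to 627 CPM. Stromal markers summed to 75.4 to 79.1 CPM, 228 to 231 and 62.9 to 63.9, and 5 of the 8 were under 1 CPM in Control. The stromal genes did not move together, since Pdgfrb had 27.6 CPM in 5-FU+FMT, 12.97 in 5-FU+Saline and 57.1 in Control, while Cxcl12 had 24.2, 126.9 and 2.32 CPM. Sums of plasma cell markers were 8535 to 8843, 7619 to 7824 and 12612 to 12854 CPM. Those of monocytes and macrophages summed to 27.01 to 29.3 CPM, 55.6 to 65.2 and 25.7 to 31.2. Among them Csf1r had 7.8, 4.4 and 15.3 CPM, but C1qa had 2.04, 6.89 and 0.377. Mast cell and basophil markers summed to 354 to 376, 313 to 331 and 473 to 487 CPM. Most of that was Gata2, with 303, 306 and 370 CPM, while Cma1 had 6.74, 4.37 and 1.87. Endothelial markers summed to 185 to 193, 213 to 229 and 161 to 168 CPM. Of these, Pecam1 had 87.7, 75.9 and 99.6 CPM, but Fabp4 had 3.88, 19.2 and 0.32. Megakaryocyte markers summed to 269 to 281 CPM, 311 to 317 and 243 to 254, with Vwf at 118, 175 and 55.99 CPM but Itgb3 at 35.2, 28.3 and 55.8 CPM. T and NK markers summed to 33.4 to 38.6, 33.5 to 34.9 and 28.6 to 31.8 CPM. Of the 88 markers in the 11 lists, Gp1bb was at 0 in every library. The part of these features in the results on the Dusp genes was not tested, and in bulk RNA, fewer cells of a type and less RNA per cell cannot be told apart.

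**Figure D1:**
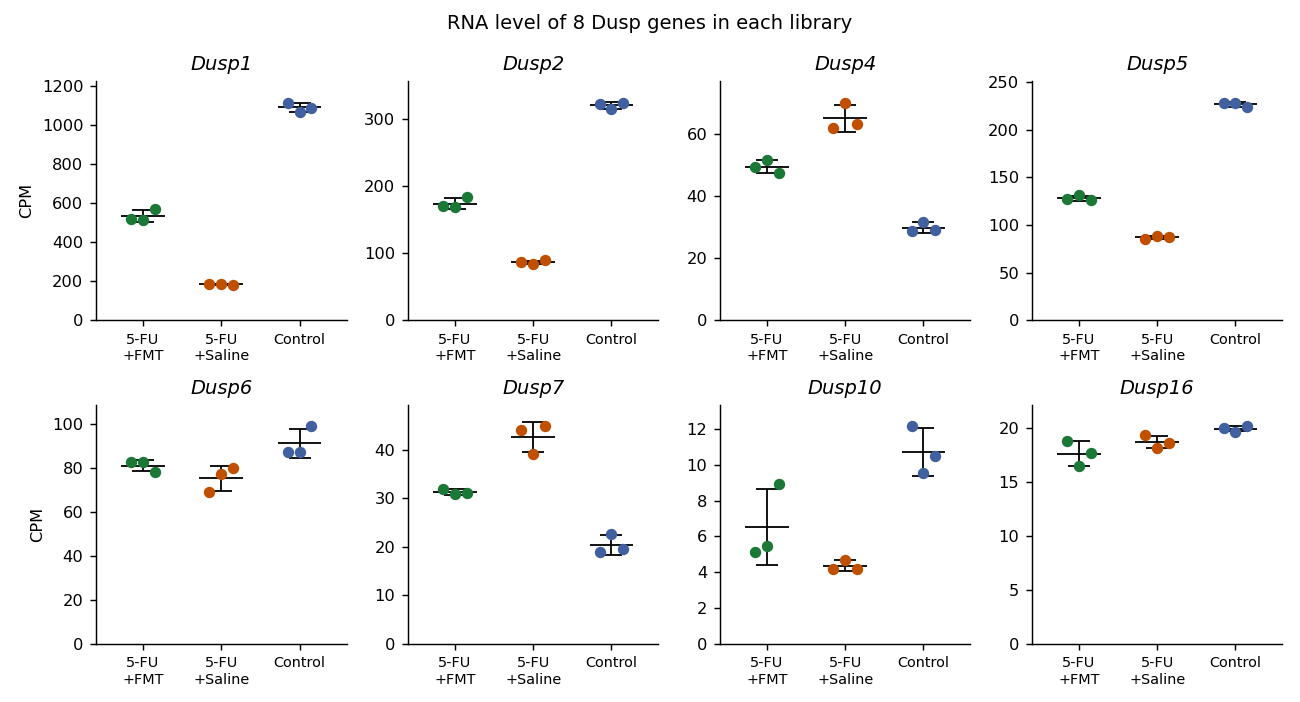
CPM of each of the 8 Dusp genes by group, with a point for each library, a horizontal line at the mean and error bars of 1 SD (n = 3). Dusp1, Dusp2, Dusp5 and Dusp10 were lowest in 5-FU+Saline and highest in Control, Dusp4 and Dusp7 were highest in 5-FU+Saline and lowest in Control, and the group means of Dusp6 and Dusp16 were closest relative to their level.

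In 5-FU+Saline against Control, the question is how 5-FU changed these cells. The nuclear phosphatase genes Dusp1, Dusp2 and Dusp5 and the JNK and p38 phosphatase gene Dusp10 fell 2.47-fold to 5.98-fold. Dusp4, another nuclear member, and Dusp7, a cytoplasmic ERK phosphatase gene, rose 2.19-fold and 2.11-fold. Dusp6 fell 1.21-fold, and Dusp16 was not called. Of the 8 genes 2 rose and 5 fell, where 32.8% and 32.7% of all 16595 genes did (65.5% either way). With upper-quartile factors the split over all genes was 4661 higher and 6210 lower, in place of 5443 and 5429. For all 8 genes no 5-FU+Saline library fell within the Control range, as for 67.8% of all genes tested, and 6 of the 8 were called with a change of at least 2-fold, against 17.7% of all genes. The median log2 fold change was -0.79 over the 8 genes and -0.02 over all genes tested, and the median size of the change was 1.22 against 0.42. A gene was called at an adjusted p under 0.05 in edgeR's quasi-likelihood test, with Benjamini-Hochberg adjustment over all genes tested.

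Dusp1 (chr17:26505590-26562128) encodes MKP-1, a nuclear phosphatase of p38, JNK and ERK. It had 185, 185 and 178 CPM in 5-FU+Saline, against 1115, 1067 and 1090.2 CPM in Control. Every 5-FU+Saline library lay far below every Control library, with a log2 fold change of -2.58 ± 0.03 (SE, adjusted p = 1.08e-71). Of all genes tested, 282 had a larger fitted fall. Dusp2 (chr2:127336159-127338376) encodes PAC-1, a nuclear phosphatase first described in activated T cells. It had 86.1, 84.2 and 89.1 CPM in 5-FU+Saline, against 323, 315 and 325 CPM in Control, a log2 fold change of -1.89 ± 0.04 (adjusted p = 1.26e-56). Dusp5 (chr19:53529109-53542431) encodes a nuclear phosphatase selective for ERK. It had 85.5, 88.9 and 86.8 CPM in 5-FU+Saline, against 228, 229 and 224 CPM in Control, a log2 fold change of -1.38 ± 0.04 (adjusted p = 2.66e-46). Of the counted Dusp5 exon bases, 547 of 2473 are shared with AC137853.2, a gene on the other strand, and the counting used no strand, so reads there cannot be assigned to either gene. AC137853.2 had at most 0.65 CPM in 5-FU+FMT, 0.827 in 5-FU+Saline and 1.34 in Control.

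Dusp4 (chr8:34807297-34819894), which encodes MKP-2, moved the other way from its nuclear relatives. It had 62.1, 70.2 and 63.4 CPM in 5-FU+Saline, against 28.7, 31.8 and 29.1 CPM in Control, a log2 fold change of 1.13 ± 0.07 (adjusted p = 8.43e-26). Dusp7 (chr9:106368632-106375724), which encodes the cytoplasmic ERK phosphatase MKP-X, had 44.2, 39.2 and 44.9 CPM in 5-FU+Saline, against 19.02, 22.6 and 19.5 CPM in Control (log2 fold change 1.08 ± 0.08, adjusted p = 3.06e-20). For both genes the lowest 5-FU+Saline library was well above the highest Control library.

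Dusp6 (chr10:99263231-99267489), which encodes MKP-3, the cytoplasmic ERK phosphatase induced by growth factor signalling, had 68.9, 77.2 and 79.9 CPM in 5-FU+Saline, against 87.4, 87.4 and 98.96 CPM in Control. The gap between the nearest libraries of the groups was small, and the log2 fold change was -0.28 ± 0.05 (adjusted p = 2.51e-06). Dusp10 (chr1:184013302-184075636) encodes MKP-5, a phosphatase of JNK and p38. It was the least counted of the 8, with 63 to 197 counts per library, so that counting error alone is 7.12% to 12.6%. It had 4.16, 4.71 and 4.18 CPM in 5-FU+Saline, against 12.2, 9.54 and 10.5 CPM in Control (log2 fold change -1.31 ± 0.17, adjusted p = 2.56e-10). Dusp16 (chr6:134715468-134792625) encodes MKP-7, a phosphatase of JNK and p38. It had 19.3, 18.1 and 18.5 CPM in 5-FU+Saline, against 19.9, 19.6 and 20.1 CPM in Control. The log2 fold change of Dusp16 was -0.09 ± 0.10, with a 95% interval of about -0.28 to 0.10 (adjusted p = 0.401).

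**Figure D2:**
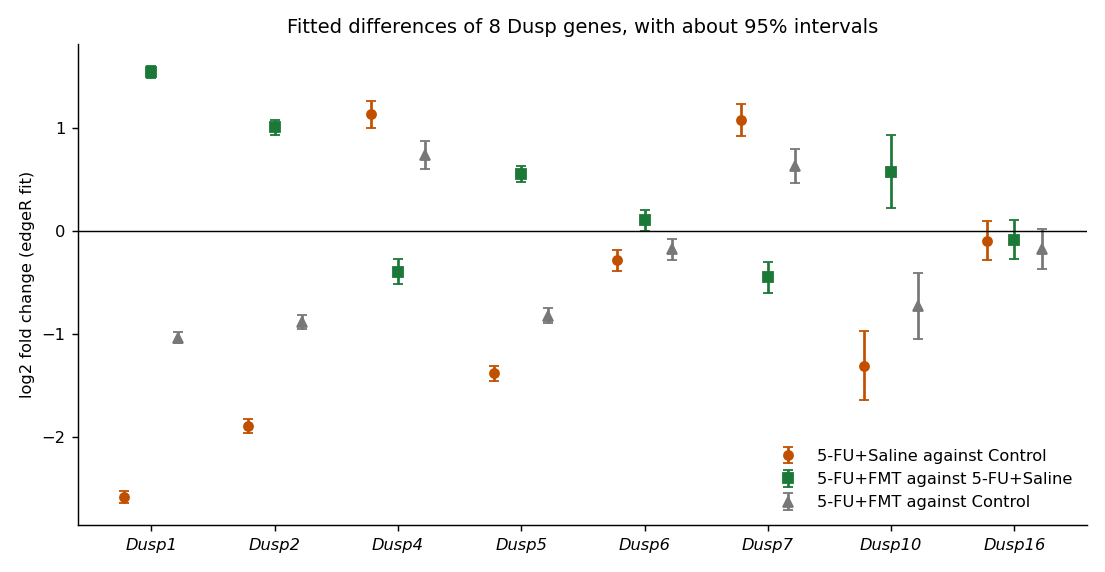
Fitted log2 fold change of each Dusp gene in the 3 comparisons (first named group over the second), with bars for the approximate 95% interval. In 5-FU+Saline against Control the values run from -2.58 for Dusp1 to 1.13 for Dusp4, and in 5-FU+FMT against 5-FU+Saline from -0.45 for Dusp7 to 1.55 for Dusp1.

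What FMT added after 5-FU was read from 5-FU+FMT against 5-FU+Saline. Dusp1 and Dusp2 rose 2.92-fold and 2.01-fold, and Dusp5 and Dusp10 rose 1.47-fold and 1.49-fold. Dusp4 and Dusp7 fell 1.31-fold and 1.37-fold. Dusp6 and Dusp16 were not called. Of the 8 genes 4 rose and 2 fell, where 17.7% and 19.2% of all genes tested did (36.9% either way), and libraries of the groups did not overlap for 6 of the 8, as for 46.3% of all genes. Among the calls, 2 of the 8 were at least 2-fold, against 5.14% of all genes. Dusp2 was near that limit, with log2 fold changes of 0.97 to 1.03 when single libraries were left out. The median log2 fold change was 0.33 over the 8 genes and 0.01 over all genes tested, and the median size was 0.50 against 0.20. This comparison shares the 5-FU+Saline libraries with the first, so the opposite signs of the fold changes are not independent of it.

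Dusp1 had 519, 511 and 568 CPM in 5-FU+FMT, against a mean of 183 ± 4.19 CPM in 5-FU+Saline (log2 fold change 1.55 ± 0.03, adjusted p = 1.29e-55). Of all genes tested, 339 had a larger fitted rise. Dusp2 had 170, 168 and 184 CPM, against 86.5 ± 2.49 in 5-FU+Saline (1.01 ± 0.04, adjusted p = 1.42e-36). Dusp5 had 127, 131 and 127 CPM, against 87.1 ± 1.69 (0.56 ± 0.04, adjusted p = 1.3e-20). In each of these genes the lowest 5-FU+FMT library exceeded the highest 5-FU+Saline library.

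Dusp4 had 49.6, 51.8 and 47.5 CPM in 5-FU+FMT, against 65.2 ± 4.37 CPM in 5-FU+Saline (log2 fold change -0.39 ± 0.06, adjusted p = 1.84e-07). Dusp7 had 31.96, 30.9 and 31.1 CPM, against 42.7 ± 3.09 in 5-FU+Saline (-0.45 ± 0.08, adjusted p = 9.5e-07). In both genes all 5-FU+FMT libraries lay below all 5-FU+Saline libraries.

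Dusp10 had 5.15, 5.48 and 8.96 CPM in 5-FU+FMT, against 4.35 ± 0.309 CPM in 5-FU+Saline (log2 fold change 0.58 ± 0.18, adjusted p = 0.00752). Replicate 3 stood well above the other 5-FU+FMT libraries. Without it the log2 fold change was 0.29 and the call was lost (adjusted p = 0.282, against 0.00167 to 0.0318 without any other library). Dusp6 had 82.6, 82.6 and 78.1 CPM in 5-FU+FMT, against 75.3 ± 5.74 in 5-FU+Saline (0.10 ± 0.05, adjusted p = 0.117), and the libraries overlapped. It was called with a stricter filter of at least 10 CPM in 3 libraries (0.12, adjusted p = 0.0479) and without 5-FU+Saline replicate 3 (0.15, adjusted p = 0.0465). Dusp16 had 18.7, 16.4 and 17.6 CPM, against 18.7 ± 0.593 (-0.08 ± 0.10, adjusted p = 0.545).

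The third comparison, 5-FU+FMT against Control, shows how far the Dusp genes with FMT stood from untreated mice. Dusp1, Dusp2, Dusp5 and Dusp10 were still 1.66-fold to 2.05-fold lower, and Dusp4 and Dusp7 1.67-fold and 1.55-fold higher. Of the 8 genes 2 were higher and 5 lower, where 25.0% and 21.6% of all genes tested were (46.6% either way). With upper-quartile factors the split over all genes turned from 4151 higher and 3584 lower to 3315 higher and 4559 lower. CPM did not overlap for all 8 genes, as for 52.7% of all genes, and 1 of the 8, Dusp1, was called at 2-fold or more, against 6.68% of all genes. That count rests on values near the limit: without the filter Dusp1 stood at -0.99, and without 5-FU+FMT replicate 3 Dusp10 stood at -1.01 (adjusted p = 3.01e-06). The median log2 fold change was -0.45, against -0.01 over all genes tested.

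The log2 fold change from Control was -1.04 ± 0.03 for Dusp1 (adjusted p = 3.08e-46), -0.88 ± 0.03 for Dusp2 (5.26e-36) and -0.82 ± 0.04 for Dusp5 (4.37e-32). Dusp4 and Dusp7 stood at 0.74 ± 0.07 (3.2e-15) and 0.63 ± 0.08 (1.41e-09), and Dusp10 at -0.73 ± 0.16 (0.000136). Dusp6 was 1.13-fold lower (log2 fold change -0.18 ± 0.05, adjusted p = 0.0037), but without Control replicate 3, its highest Control library, the log2 fold change was -0.11 and the call was lost (adjusted p = 0.139). Dusp16 was not called (-0.18 ± 0.10, adjusted p = 0.14), although it was with upper-quartile factors (-0.24, adjusted p = 0.0378).

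The mean of 5-FU+FMT lay between those of the other groups for 7 of the 8 genes, the exception being Dusp16. The same held for 96.2% of the genes called at least 2-fold lower in 5-FU+Saline than in Control and for 95.2% of those called at least 2-fold higher. On the CPM scale, where the 5-FU+Saline mean is 0% and the Control mean 100%, Dusp1 stood at 38.5% (36.1% to 42.4% over the 5-FU+FMT libraries), Dusp2 at 37.4% and Dusp5 at 29.5%. Dusp4 and Dusp7, which ran in the other direction, stood at 44.2% and 51.1%. Dusp6 at 36.2% and Dusp10 at 34.1% had wide ranges over the libraries, 17.7% to 45.5% and 12.4% to 72.2%. Without 5-FU+Saline replicate 1 Dusp6 stood at 20.02%, and without 5-FU+FMT replicate 3 Dusp10 stood at 15.04%. The immediate early genes Fos, Fosb, Jun and Egr1 stood at 34.6%, 34.4%, 36.8% and 31.9%. Over the 1852 genes that were called at least 2-fold lower in 5-FU+Saline than in Control, the median was 37.5% (quartiles 28.3% and 47.4%), and over the 1081 called at least 2-fold higher it was 48.3% (quartiles 37.3% and 63.03%). Xist stood at 43.2%, and the Y-linked Ddx3y, Eif2s3y, Uty and Kdm5d at 47.2%, 45.8%, 58.4% and 54.5%. The positions of the Dusp genes thus lay within the spread of other genes that differed between 5-FU+Saline and Control. They depend on the scale: on log2(CPM + 1), Dusp1, Dusp2, Dusp4, Dusp5 and Dusp7 stood at 59.8%, 53.2%, 35.1%, 40.4% and 41.98%. On that scale Fos, Fosb, Jun and Egr1 stood at 58.3%, 61.8%, 63.3% and 58.6%. Xist stood at 8.72%, and Ddx3y, Eif2s3y, Uty and Kdm5d at 64.3%, 60.8%, 70.5% and 66.5%.

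**Figure D3:**
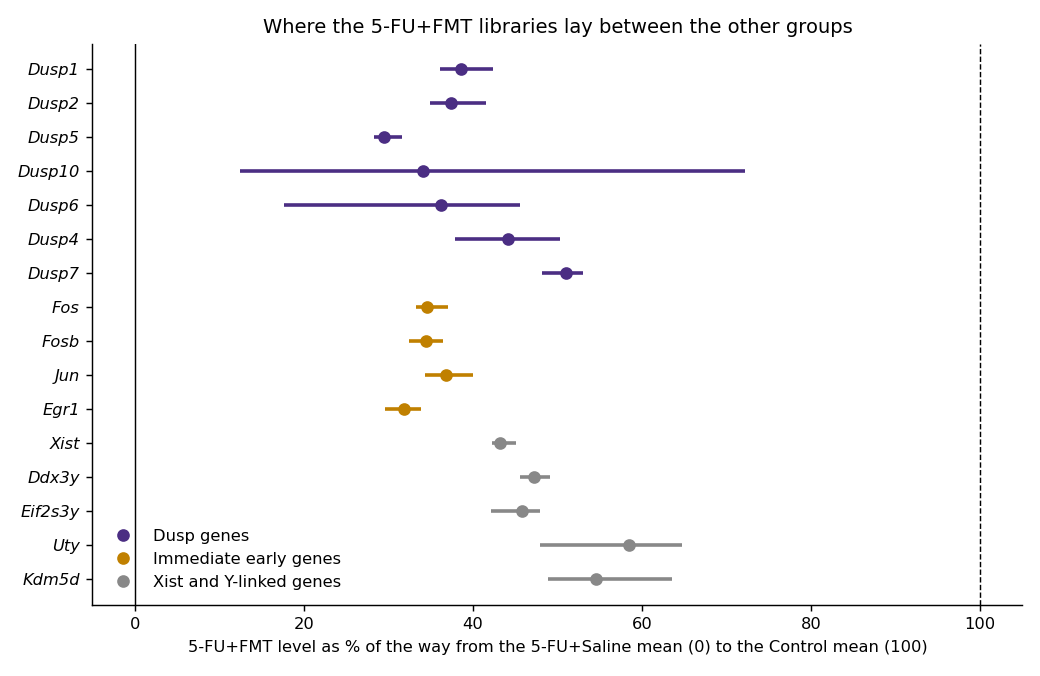
Level of each gene in 5-FU+FMT as a percentage of the way from the 5-FU+Saline mean (0) to the Control mean (100), on the CPM scale, with a point at the mean and a line over the 3 libraries. The 7 Dusp genes drawn, all but Dusp16, lie between 29.5% and 51.1%, the immediate early genes between 31.9% and 36.8%, and Xist and the Y-linked genes between 43.2% and 58.4%.

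Levels were compared between genes as CPM per kilobase of counted exon. Dusp1 was the highest of the 8 in every group, at 161 ± 9.3 CPM per kilobase in 5-FU+FMT, 55.1 ± 1.27 in 5-FU+Saline and 329 ± 7.18 in Control (SD, n = 3 each). By this level it ranked 226, 905 and 118 of 16595 genes in those groups. Dusp2, Dusp5, Dusp6, Dusp4 and Dusp7 followed in that order in all 3 groups. In 5-FU+FMT they stood at 86.9, 51.9, 25.9, 18.1 and 9.34 CPM per kilobase, in 5-FU+Saline at 43.2, 35.2, 24.05, 23.8 and 12.7, and in Control at 160.2, 91.7, 29.1, 10.9 and 6.08. Dusp6 and Dusp4 did not differ beyond their spread in 5-FU+Saline, where the Dusp6 libraries ran from 21.99 to 25.5 and the Dusp4 libraries from 22.7 to 25.6 CPM per kilobase. Dusp10 and Dusp16 were lowest, at 2.15 and 2.26 in 5-FU+FMT, where their libraries overlapped, at 1.43 and 2.39 in 5-FU+Saline, and at 3.53 and 2.55 in Control.

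The make-up of the family differed between the groups. The 8 genes summed to 357 ± 12.0 CPM per kilobase in 5-FU+FMT, 198 ± 2.46 in 5-FU+Saline and 634 ± 8.76 in Control. Dusp1 made up 44.98% ± 1.09 of the sum in 5-FU+FMT, 27.9% ± 0.844 in 5-FU+Saline and 51.995% ± 0.478 in Control. Dusp4 made up 5.08% ± 0.377, 12.03% ± 0.705 and 1.72% ± 0.122, and Dusp6 7.26% ± 0.463, 12.1% ± 0.792 and 4.6% ± 0.325. Dusp2 took 21.8% to 25.3% and Dusp5 14.5% to 17.8% by group mean. In 5-FU+Saline the libraries ran from 21.1% to 22.4% for Dusp2 and from 17.6% to 18.0% for Dusp5. Every library of the other groups lay above that for Dusp2, at 24.03% or more, and below it for Dusp5, at 15.2% or less. The ratio of Dusp1 to Dusp4, per kilobase and free of library scaling, was 8.66, 8.16 and 9.9 in the 5-FU+FMT libraries, 2.46, 2.18 and 2.32 in 5-FU+Saline, and 32.1, 27.8 and 31.05 in Control. This pair was chosen after its values were seen, and its ratios did not overlap between any of the groups.

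**Figure D4:**
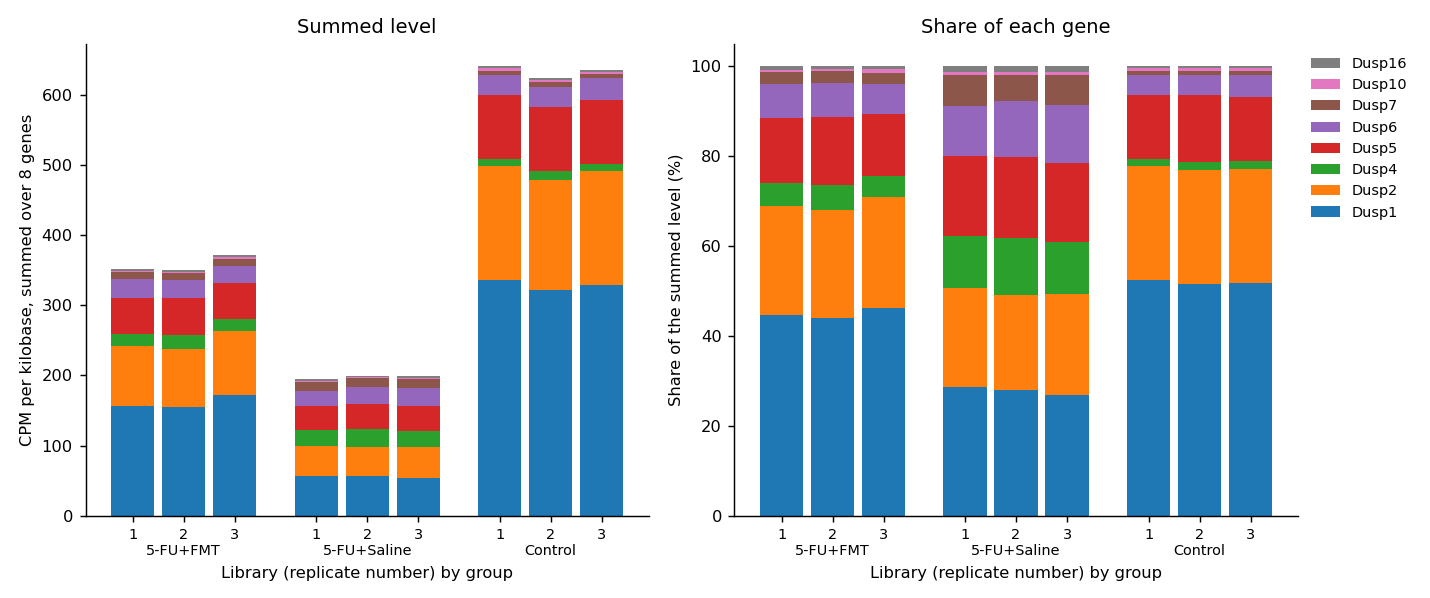
Left, CPM per kilobase of the 8 Dusp genes stacked for each library. Right, the share of each gene in that sum, in percent. The summed level is lowest in 5-FU+Saline (198 on average, against 634 in Control). There Dusp4, Dusp5, Dusp6, Dusp7 and Dusp16 take larger shares than in the other groups, and Dusp1 and Dusp2 smaller ones.

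Likeness was measured as the root mean square difference of log2(CPM + 1) values over the 9 libraries, each gene centred on its own mean, and is a description without a test. The 9 libraries fall into 3 tight groups, so it mostly compares 3 group means. Among the 28 pairs of Dusp genes, Dusp4 and Dusp7 were most alike (0.112), followed by Dusp6 and Dusp16 (0.130), Dusp5 and Dusp10 (0.227) and Dusp2 and Dusp5 (0.233), and Dusp1 and Dusp4 were least alike (1.5). Among 9641 genes outside the family with a standard symbol and a mean of at least 10 CPM, the nearest to Dusp1 were Ccl9, Rgs1 and Btg2 (0.0776 to 0.0864), a chemokine gene, a regulator of G-protein signalling and an anti-proliferation gene. Nearest to Dusp2 were the immediate early gene Ier2, Ltbp3 and the long noncoding RNA Neat1 (0.0553 to 0.065). Nearest to Dusp5 were the kinase gene Sik1, Phykpl and the cAMP phosphodiesterase gene Pde4b (0.0409 to 0.053). Dusp4 had Stambpl1, Snx2 and the serine synthesis gene Psat1 nearest (0.0456 to 0.0557), and Dusp7 had the centromere gene Cenpn, Lrmp and Lsm2 (0.04 to 0.07). For Dusp6 they were Itpr1, Usp3 and Wipf2, for Dusp10 Cyp2j9, Smim24 and Ighv1-58, and for Dusp16 Slc30a7, Pdia4 and Ampd2.

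The rest of the pathway was read from 3 fixed lists. The first held 23 other phosphatases: Dusp8 and Dusp9, which are MAP kinase phosphatases of the same class as the 8, atypical DUSPs, the MAP kinase tyrosine phosphatases Ptpn5, Ptpn7 and Ptprr, and slingshot and STYX genes. In 5-FU+Saline against Control, 3 rose and 8 fell of 16 tested (68.8%, against 65.5% of all genes, and a median log2 fold change of -0.16). Ptpn7, the ERK and p38 phosphatase of blood cells, rose to 320.05 ± 5.12 CPM in 5-FU+Saline, against 182 ± 3.82 in Control (1.76-fold, adjusted p = 7.33e-37). Dusp3, an atypical DUSP known as VHR, rose 1.83-fold, while the atypical Dusp18 fell 3.5-fold and the cofilin phosphatase gene Ssh3 fell 1.7-fold. In 5-FU+FMT against 5-FU+Saline 4 rose and 2 fell (37.5%, against 36.9% of all genes, median 0.13), with Dusp18 and Ssh3 1.75-fold and 1.34-fold higher and Ptpn7 and Dusp3 1.25-fold and 1.33-fold lower. In 5-FU+FMT against Control 5 rose and 6 fell (68.8%, against 46.6% of all genes, median -0.11). Leaving out any 1 library gave fewer calls there, 8 to 10. Dusp9 had 3.08 ± 0.625 CPM in 5-FU+FMT, 3.21 ± 0.779 in 5-FU+Saline and 0.933 ± 0.163 in Control. It was higher than Control in both treated groups (adjusted p = 5.88e-06 with FMT and 1.03e-06 with saline), and was not called between them (adjusted p = 0.878). Dusp8, named outside the rule, had 0.634 ± 0.529 CPM in 5-FU+FMT, 0.228 ± 0.119 in 5-FU+Saline and 2.41 ± 0.488 in Control, and was called lower than Control in both treated groups (adjusted p = 0.000448 and 1e-07).

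The second list held 32 MAP kinases and the kinases upstream of them, of which 29 were tested. In 5-FU+Saline against Control 12 rose and 12 fell (82.8%, against 65.5% of all genes, median 0.01). Their changes were mostly small, with a median size of 0.28 on the log2 scale, against 1.22 over the 8 Dusp genes and 0.42 over all genes tested. The p38 beta gene Mapk11 rose to 19.9 ± 0.906 CPM in 5-FU+Saline, against 8.79 ± 1.42 in Control (2.22-fold, adjusted p = 2.56e-14). Map3k8, which encodes the kinase TPL2 upstream of ERK, fell to 17.4 ± 2.72 CPM in 5-FU+Saline, against 46.4 ± 1.51 in Control (2.64-fold, adjusted p = 2.99e-25), and Araf fell 1.29-fold. In 5-FU+FMT against 5-FU+Saline 7 rose and 5 fell (41.4%, against 36.9% of all genes, median -0.03), among them Map3k8 (1.43-fold) and Araf (1.12-fold) higher and the MEK2 gene Map2k2 (1.16-fold) lower. In 5-FU+FMT against Control 7 rose and 12 fell (65.5%, against 46.6% of all genes, median -0.02).

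The third list held 30 genes, of which 28 were tested. It takes in genes that ERK signalling is known to induce, feedback genes, transcription factors and kinases downstream of MAP kinases, not all specific to ERK. In 5-FU+Saline against Control 12 rose and 10 fell (78.6%, against 65.5% of all genes, median 0.03), and 9 of the 28 were called at 2-fold or more, against 17.7% of all genes. The early response genes Egr1 and Fos, both transcription factors, fell 9.9-fold and 7.4-fold, to 247 ± 7.43 and 488 ± 3.36 CPM in 5-FU+Saline, against 2447 ± 15.1 and 3617 ± 59.02 CPM in Control. Ccnd1, the cyclin D1 gene, rose to 112 ± 5.93 CPM in 5-FU+Saline, against 24.1 ± 1.21 in Control (4.62-fold, adjusted p = 1.08e-46). The ETS factor gene Etv5 rose to 103 ± 3.39 CPM, against 29.3 ± 3.28 in Control (3.51-fold, adjusted p = 1.47e-40). Of the Sprouty and SPRED genes, inhibitors of Ras and ERK signalling that are named here outside the rule, Spry4, Spred1 and Spred2 rose 3.62-fold, 1.56-fold and 1.6-fold (adjusted p = 3.85e-12, 1.82e-21 and 2.44e-18), and Spry1 fell 1.74-fold (adjusted p = 1.19e-14). Spred3 rose 1.2-fold (adjusted p = 0.00224), and Spry2 was not called (adjusted p = 0.097).

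With FMT against saline 8 genes of that list rose and 10 fell (64.3%, against 36.9% of all genes, median -0.04). Egr1 and Fos rose 3.84-fold and 3.22-fold, to 948 ± 47.7 and 1571 ± 64.7 CPM in 5-FU+FMT. Ccnd1 and Etv5 fell 1.54-fold and 1.48-fold, to 72.6 ± 2.33 and 69.2 ± 3.54 CPM in 5-FU+FMT (adjusted p = 1.26e-17 and 8.37e-15). In 5-FU+FMT against Control 11 rose and 8 fell (67.9%, against 46.6% of all genes, median -0.05). Another ETS factor gene, Etv4, had 13.7 ± 1.5 CPM in 5-FU+FMT, 27.8 ± 1.05 in 5-FU+Saline and 0.786 ± 0.428 in Control. It was 17.1-fold higher than Control with FMT and 34.8-fold higher with saline (adjusted p = 1.07e-29 and 3.04e-39), and 2.03-fold lower with FMT than with saline (adjusted p = 8.92e-13).

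**Figure D5:**
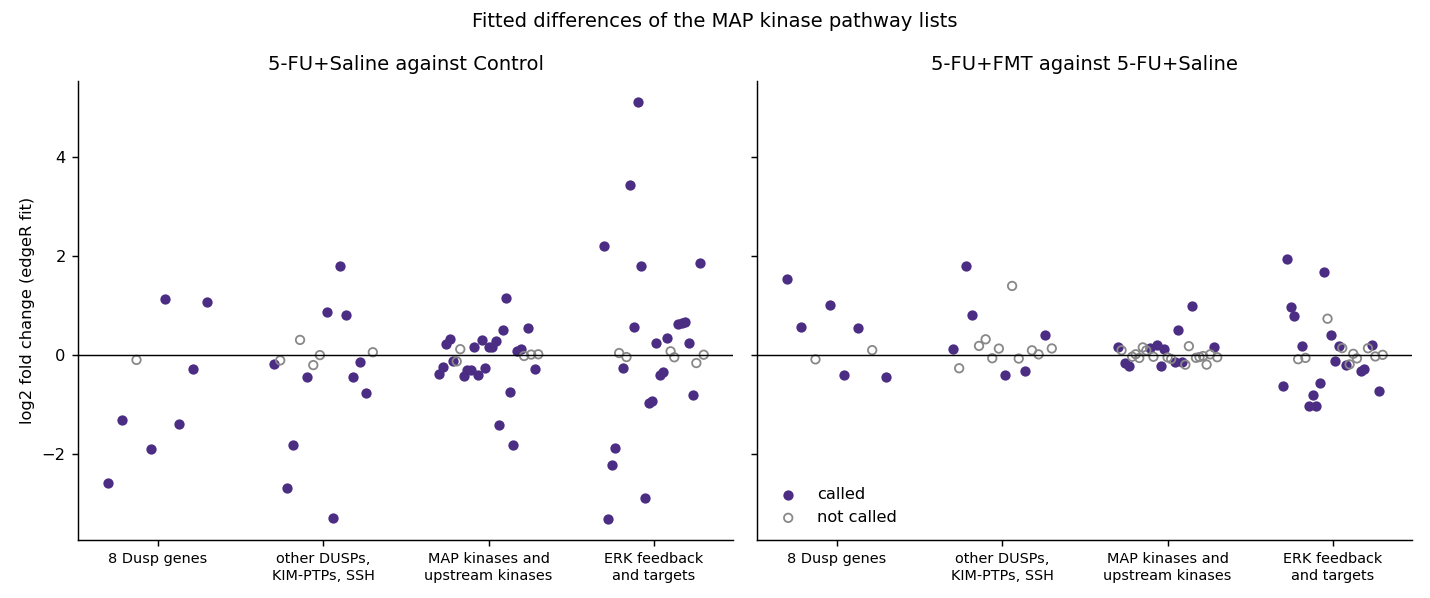
Fitted log2 fold change of every tested gene of the 8 Dusp genes and of the 3 pathway lists, for 5-FU+Saline against Control (left) and 5-FU+FMT against 5-FU+Saline (right), with filled points for called genes. Genes lie on both sides of 0 in every list, and the MAP kinases and upstream kinases lie nearest to 0, with a median size of 0.28 on the left.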

How the data were processed

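RNA-seq of 9 libraries, 3 in each of 3 groups, was used. Per the labels, total RNA was isolated with Trizol, made into NEBNext Ultra II libraries and read in pairs on a NovaSeq. The deposited values are raw counts of read pairs per gene. Per the submitters' processing notes, the tools were Trim Galore 0.6.5, HISAT2 2.2.1, SAMtools and featureCounts 2.0.1, and the genome build was mm10. Per the file headers, exons of GENCODE M25 were counted by gene without a strand option, from alignments named as sorted unique pairs. Of 56262 gene IDs, 55141 were given a symbol from a reference table.

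From these counts, genes were filtered with filterByExpr, scaled by TMM and fitted with the 3 groups together by edgeR's quasi-likelihood test (edgeR 4.0.16 with limma 3.58.1 under R 4.3.3). CPM is the count scaled to the TMM-adjusted library size. Standard errors are the log2 fold change divided by the square root of F, and are approximate. The biological coefficient of variation was 3.74%. The fit was tested on simulated counts. Between libraries of a group, chi-square divided by its degrees of freedom was 2.13 to 2.55, so none was counted as a repeat of another. That value cannot tell whether libraries of a group came from separate mice or from shared RNA. Counting errors cover counting only. Figures were drawn with matplotlib 3.10.9.

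The Dusp genes, lists and motifs were chosen with earlier results of these data known. Named were all 8 Dusp genes, up to 4 genes per pathway list and comparison with the smallest p (2 in each direction where both moved), and the 3 genes most like each Dusp gene. A gene that this rule names in the kinase list is not reported here by name. Alternatives were RLE and upper-quartile factors, DESeq2 1.42.0, limma-voom, no filter, a filter of 10 CPM in 3 libraries, the compared groups alone, a replicate block, and leaving out each library.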

Additional observations from a re-analysis of the deposited data

How the results depend on the processing

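Dusp1, Dusp2, Dusp4, Dusp5 and Dusp7 kept their direction and their call in every comparison under all 17 alternatives, with log2 fold changes in 5-FU+Saline against Control of -2.66 to -2.54, -1.97 to -1.85, 1.06 to 1.18, -1.46 to -1.34 and 1.003 to 1.15. The exceptions, in Dusp6, Dusp10 and Dusp16, are given with their values above, and their cause was not tested. Leaving out 1 library gave 7 to 7 called Dusp genes in 5-FU+Saline against Control, 5 to 7 in 5-FU+FMT against 5-FU+Saline and 6 to 7 in 5-FU+FMT against Control. The stricter filter, which leaves out Dusp10, moved the count of other phosphatases called in 5-FU+FMT against Control from 11 of 16 tested to 7 of 9 tested (77.8%), of which 6 were called without it too. Replicate numbers are shared between groups, but libraries of the same number did not deviate together (r of -0.02 to 0.02 across genes in 9 pairs). With the replicate block 7, 6 and 7 Dusp genes were called in the 3 comparisons, as without it, and 10847, 6193 and 7717 genes, against 10872, 6123 and 7735. Depth limits Dusp10 most, with 63 counts in its lowest library.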
